A study of Mus musculus with 36 samples.

Results

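The chemokine genes *Cxcl9*, *Cxcl10* and *Cxcl11* and the gene of their shared receptor, *Cxcr3*, were followed across all 36 tumors of the study. They were chosen by name as the ligands and receptor of the CXCR3 axis. These are 4 of the 12394 genes read from the arrays, and they are carried by 5 of the 22690 probe sets, since *Cxcl11* has 2. Each tumor gave 1 Affymetrix mouse array, deposited as log2 values, so a difference of 1 is a 2-fold difference.

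The tumors grew from 67NR or 66cl4 cells, BALB/c-derived mouse mammary carcinoma lines, injected into the mammary fat pad of young adult female mice. Bptf KD cells carried 1 of 2 hairpins against *Bptf*, a subunit of the NURF chromatin remodeling complex, delivered by retrovirus, and control cells carried control hairpins. The hosts were NSG mice (NOD/SCID/Ifrg2r -/- in the labels), which lack T, B and NK cells and keep macrophages and neutrophils, and immune-competent BALB/c mice, in which the cells are syngeneic. Each of the 4 combinations of line and host held 6 Bptf KD and 3 control tumors, taken at day 21 for 67NR and day 28 for 66cl4, so that line and day of harvest cannot be told apart. The hosts also differ in strain background. The labels do not state which of the 2 hairpins a Bptf KD tumor carried, so the 6 Bptf KD tumors of a group may mix both, and they were counted as separate samples.

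CXCL9, CXCL10 and CXCL11 are small secreted proteins that share 1 receptor, CXCR3, a G protein-coupled receptor of activated T cells and NK cells. Cells exposed to interferon gamma, macrophages and tumor cells among them, make all of these ligands, and *Cxcl10* also answers to type I interferon and NF-kB. T cells and NK cells that arrive can release more interferon gamma, which is why the axis is studied in tumors as a route of lymphocyte entry. RNA of whole tumors was measured here, so a lower value in bulk tissue can mean fewer cells of a type or less RNA per cell, and these cannot be told apart.

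The 3 ligand genes lie side by side on mouse chromosome 5, in the order *Cxcl9*, *Art3*, *Cxcl10*, *Cxcl11*, and *Cxcr3* lies on chromosome X. RefSeq's GRCm38.p6 annotation, made from C57BL/6J mice, lists *Cxcl11* as a transcribed pseudogene. The hosts here were of other strains. The 250 bases upstream of the annotated starts of *Cxcl9* and *Cxcl10* are shown because these ligands are neighbors in 1 locus and their values are set side by side. Both are read 5′ to 3′ on the minus strand, from RefSeq on GRCm38.p6, at chr5:92328080-92328329 for *Cxcl9* and chr5:92348890-92349139 for *Cxcl10*. Capitals mark an interferon-stimulated response element (ISRE, GAAA, any 2 bases, then GAAA) and NF-kB consensus sites, searched on both strands together with the gamma-activated site TTCNNNGAA.
Cxcl9: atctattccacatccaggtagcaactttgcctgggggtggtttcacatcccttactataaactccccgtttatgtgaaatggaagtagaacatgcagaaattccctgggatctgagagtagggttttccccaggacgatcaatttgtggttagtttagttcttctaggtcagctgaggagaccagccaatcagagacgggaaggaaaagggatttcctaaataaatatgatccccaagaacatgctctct
Cxcl10: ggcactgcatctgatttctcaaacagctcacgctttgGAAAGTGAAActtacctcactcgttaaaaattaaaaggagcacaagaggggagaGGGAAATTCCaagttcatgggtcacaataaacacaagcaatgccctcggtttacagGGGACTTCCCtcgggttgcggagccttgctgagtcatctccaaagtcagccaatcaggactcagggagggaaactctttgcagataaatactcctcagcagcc

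The *Cxcl10* window held 1 ISRE and 2 NF-kB consensus sites, none of them overlapping, and the *Cxcl9* window held none of these motifs in these letters. Among 32851 upstream windows of the same length, 2.98% held the ISRE, 3.90% the NF-kB consensus and 7.02% the gamma-activated site. The window of *Cxcr3* held none of the 3 motifs either. A match of letters is a description of the sequence and no evidence that a factor binds there.

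The labels were checked against the targeted gene first. *Bptf*, read from the brightest of its 4 probe sets, had 8.68, 8.89 and 9.12 as lowest, median and highest value in 66cl4 Bptf KD tumors from BALB/c mice, against 9.50, 9.89 and 10.61 in their controls. All 6 Bptf KD tumors lay below every control (difference -1.08 ± 0.20 SE, limma adjusted p = 0.0628). In 67NR tumors from BALB/c mice it had 8.34, 9.98 and 10.68 in tumors labelled Bptf KD, against 9.73, 9.76 and 10.31 in controls, and the groups overlapped (-0.06 ± 0.45 SE, adjusted p = 0.985). In tumors from NSG mice the difference was -0.27 ± 0.22 SE for 67NR and -0.33 ± 0.12 SE for 66cl4 (adjusted p = 0.644 and 0.584). The other 3 probe sets of *Bptf*, all dimmer, did not give 1 picture in 67NR. From BALB/c mice their means were 8.76, 7.0 and 5.47 in tumors labelled Bptf KD, against 9.02, 6.97 and 6.09 in controls, and each of the 3 overlapped. From NSG mice they were 8.23, 6.76 and 5.40 in tumors labelled Bptf KD, against 8.99, 6.70 and 6.17 in controls, so that 2 of the 3 were lower by more than the brightest one, again with overlap. In 66cl4 from BALB/c mice these 3 means were 7.33, 6.66 and 5.03 with Bptf KD, against 9.17, 6.80 and 6.32 in controls. From NSG mice they were 7.21, 6.68 and 4.72, against 7.59, 6.38 and 5.01. The second of the 3 overlapped in BALB/c mice. In NSG mice it was higher in all 6 Bptf KD tumors than in every control (6.54 to 6.82, against 6.30 to 6.52). Directions are given by the tumors' labels throughout.

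**Figure D1:**
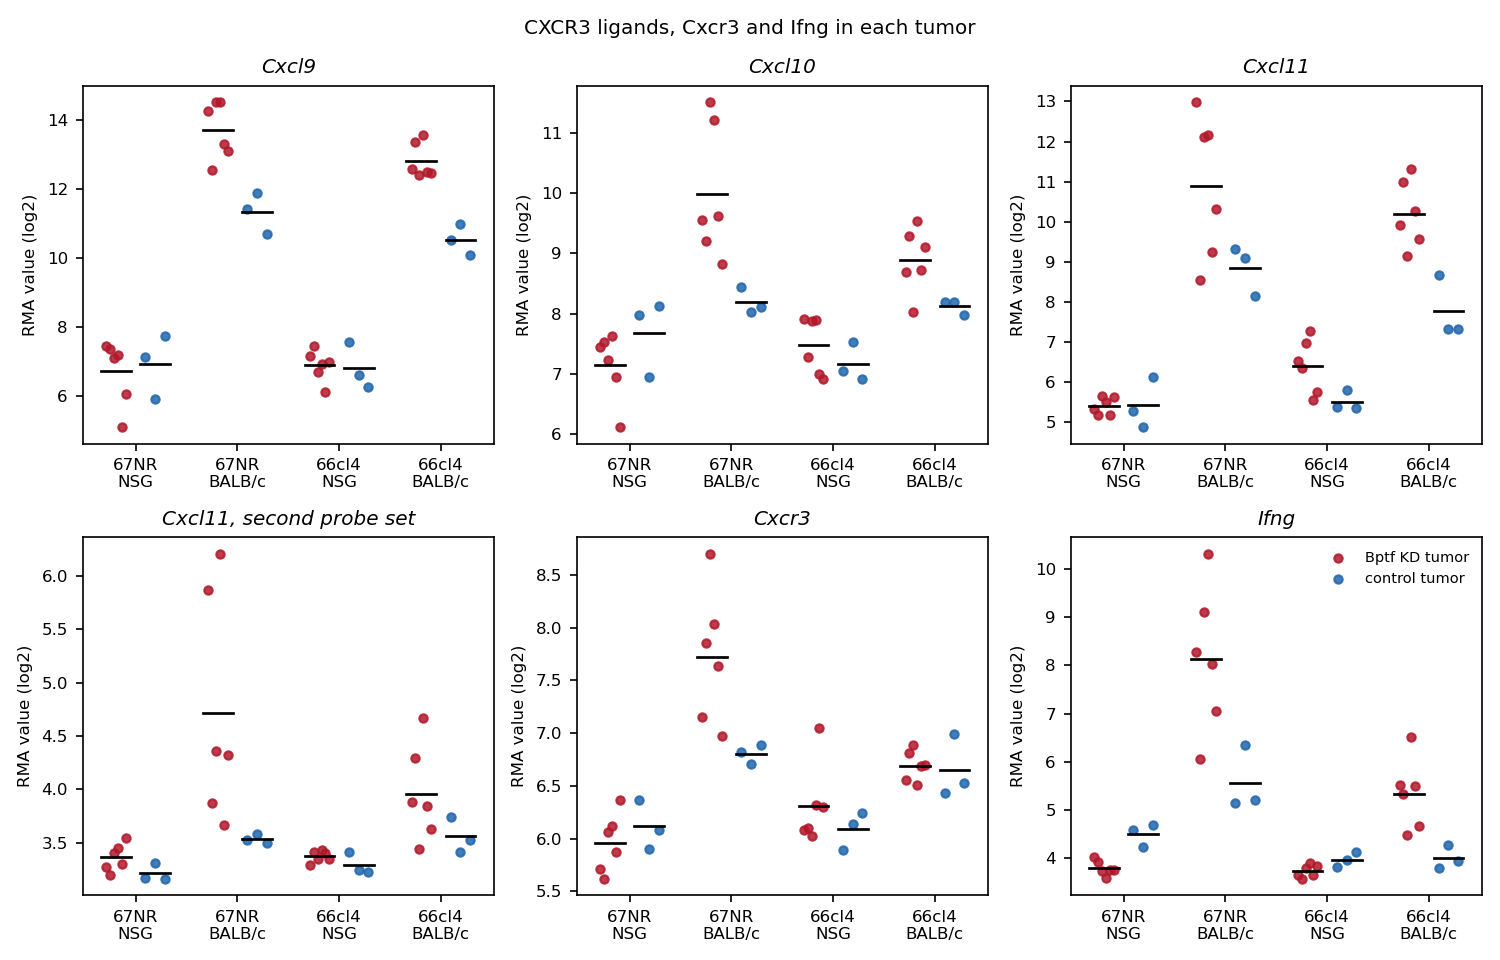
RMA values (log2) of *Cxcl9*, *Cxcl10*, both probe sets of *Cxcl11*, *Cxcr3* and *Ifng* in each tumor, by cell line and host, with 6 Bptf KD tumors (red) left of 3 control tumors (blue); black lines are group means. *Cxcl9* lies between 5.11 and 7.75 in all tumors from NSG mice, and in BALB/c mice between 12.40 and 14.50 in every Bptf KD tumor and between 10.08 and 11.87 in controls.

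In 66cl4 tumors from BALB/c mice, *Cxcl9* rose 4.87-fold with Bptf KD and had the smallest p of all 12394 genes. The 6 Bptf KD tumors were at 12.56, 13.36, 12.40, 13.56, 12.49 and 12.46, against 10.51, 10.97 and 10.08 in the 3 controls. Every Bptf KD tumor lay above every control, and the lowest of them was more than 1 log2 unit above the highest control. The difference was 2.29 ± 0.29 SE (limma adjusted p = 0.0331). *Cxcl9* was the only member past the threshold of 0.05, 1 of 4, where 0.113% of all genes passed upward. Before adjustment 3 of 4 had p under 0.05, where 12.4% of all genes had it in this direction.

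*Cxcl11*, which binds CXCR3 and also the atypical receptor ACKR3, showed a difference of like size in the same tumors but with more spread. Its brighter probe set gave 9.93, 10.99, 9.14, 11.31, 10.28 and 9.57 in 66cl4 Bptf KD tumors, against 8.68, 7.33 and 7.33 in controls. The groups did not overlap, as for 3.78% of all genes in this direction, yet the control at 8.68 came close to the lowest Bptf KD tumor. The difference was 2.42 ± 0.47 SE, or 5.36-fold, with an adjusted p of 0.0648. Without that control (replicate 1) it was 2.87 with an adjusted p of 0.0087, and without Bptf KD replicate 6 it was 2.55 with an adjusted p of 0.0371.

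*Cxcl10* differed less. It had 8.69, 9.29, 8.02, 9.53, 8.72 and 9.10 in 66cl4 Bptf KD tumors from BALB/c mice, against 8.19, 8.19 and 7.97 in controls, so 5 of 6 lay above every control and 1 lay among them (0.78 ± 0.27 SE, adjusted p = 0.115). *Cxcr3* had 6.56, 6.81, 6.89, 6.51, 6.69 and 6.70 in Bptf KD tumors, against 6.43, 6.99 and 6.53 in controls (0.04 ± 0.14 SE, adjusted p = 0.882). The receptor's groups overlapped in tumors where 2 of its ligands were apart. Tumors from NSG mice, hosts that lack T cells and NK cells, gave 5.62 to 7.05 on the *Cxcr3* probe set (at most 6.37 without 1 tumor at 7.05). In 66cl4 the receptor was thus read close to the level of those tumors, where a small change may not show.

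These calls rest on few tumors. *Cxcl9* lost its call, with adjusted p up to 0.174, when control replicate 2 or 3 or Bptf KD replicate 1, 2 or 5 was left out, and when all 36 tumors shared 1 estimate of spread (adjusted p = 0.166). The methods' t-test, run as the study's methods name it (adjusted p = 0.15), and a covariate for RNA integrity (0.217) also ended the call. In all these settings its difference stayed between 2.07 and 2.51. An exact permutation test of 3 against 6 tumors cannot go below p = 0.0238, two-sided, a value that *Cxcl9* and *Cxcl11* reached (0.0762 after Benjamini-Hochberg adjustment over 16 such tests).

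In 67NR tumors from BALB/c mice, all 4 genes had higher means in Bptf KD tumors, and limma called none of them. No gene of the 12394 passed there (0.0%). Before adjustment 3 of the 4 members had p under 0.05, against 4.37% of all genes in that direction, and the methods' t-test after adjustment called none either. *Cxcl9* had 14.25, 12.53, 14.50, 14.50, 13.30 and 13.09 in Bptf KD tumors, against 11.43, 11.87 and 10.69 in controls, again without overlap (2.37 ± 0.48 SE, adjusted p = 0.500). *Cxcl10* had 9.55, 9.21, 11.51, 11.22, 9.62 and 8.83, against 8.44, 8.03 and 8.10 (1.80 ± 0.58 SE, adjusted p = 0.609). Both chemokines were higher in 6 of 6 Bptf KD tumors than in every control.

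*Cxcl11* varied most within this group. It had 12.98, 8.54, 12.11, 12.17, 9.24 and 10.33 in 67NR Bptf KD tumors, against 9.32, 9.09 and 8.15 in controls (2.04 ± 0.95 SE, adjusted p = 0.653). Bptf KD replicates 2 and 5 lay among the controls while replicates 1, 3 and 4 were several-fold above them. On the brightest *Bptf* probe set replicates 2 and 5 had 10.68 and 10.48, above every control (9.73 to 10.31). Replicates 1, 3, 4 and 6 had 9.82, 10.12, 9.83 and 8.34. Whether *Cxcl11* goes with *Bptf* within this group alone was not tested. *Cxcr3* had 7.15, 7.85, 8.70, 8.03, 7.64 and 6.97 in Bptf KD tumors, against 6.82, 6.71 and 6.89 in controls (0.92 ± 0.34 SE, adjusted p = 0.609). Members without overlap were 3 of 4, *Cxcl9*, *Cxcl10* and *Cxcr3*, where 3.13% of all genes did not overlap in this direction.

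The call in 67NR depends on how the spread is estimated. With the spread shared over all 36 tumors, *Cxcl9*, *Cxcl10* and *Cxcr3* passed (adjusted p = 0.00388, 0.0127 and 0.0242) and *Cxcl11* did not (0.056), at the same differences. Skeletal muscle RNA was also uneven in these tumors: the mean of 8 muscle genes was 11.82 in Bptf KD replicate 3 and 7.55 in replicate 4, between 5.39 and 5.72 in the other Bptf KD tumors and between 5.32 and 5.50 in controls. Replicate 3 had the highest *Cxcl10* and *Cxcr3*. Without it, differences were 2.20 for *Cxcl9*, 1.50 for *Cxcl10*, 1.80 for *Cxcl11* and 0.72 for *Cxcr3*.

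In tumors from NSG mice no member passed with Bptf KD in either line. In all, 1.14% of genes passed in 67NR and 0.0% in 66cl4. Before adjustment 0 of 4 members in 67NR and 1 of 4 in 66cl4 had p under 0.05, where 14.1% and 7.68% of all genes did, and the methods' t-test called no member there after adjustment. In 67NR, *Cxcl9* had 5.11, 7.16 and 7.47 as lowest, median and highest of the Bptf KD tumors, against 5.92, 7.14 and 7.75 in controls (-0.22 ± 0.54 SE, adjusted p = 0.899). *Cxcl10* had 6.11, 7.34 and 7.62, against 6.94, 7.97 and 8.12 (-0.53 ± 0.34 SE, adjusted p = 0.537). Differences of *Cxcl11* and *Cxcr3* in these 67NR tumors were -0.02 ± 0.24 and -0.16 ± 0.17 SE, and all groups overlapped.

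66cl4 tumors from NSG mice were alike for *Cxcl9*, at 6.13, 6.98 and 7.46 (lowest, median and highest) in Bptf KD tumors, against 6.28, 6.63 and 7.57 in controls (0.08 ± 0.31 SE, adjusted p = 0.979). *Cxcl11* was the 1 member with p under 0.05 before adjustment. It had 6.52, 6.35, 6.99, 7.27, 5.57 and 5.75 in Bptf KD tumors, against 5.39, 5.80 and 5.37 in controls, so that 4 of 6 lay above every control (0.89 ± 0.34 SE, adjusted p = 0.584). *Cxcl10* and *Cxcr3* differed by 0.32 ± 0.26 and 0.22 ± 0.20 SE.

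**Figure D2:**
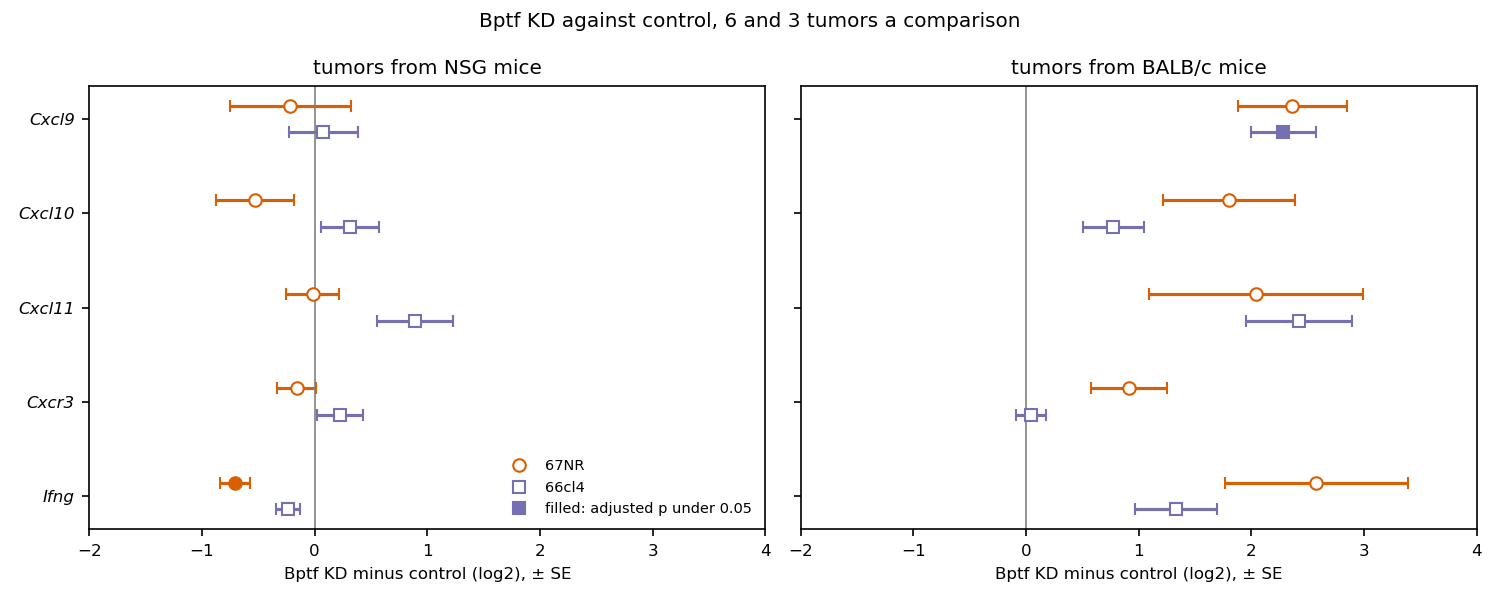
Difference between Bptf KD and control tumors (log2, ± SE from limma) for the CXCR3 ligands, *Cxcr3* and *Ifng*, in tumors from NSG mice (left panel) and BALB/c mice (right panel), with 67NR as circles and 66cl4 as squares, each from 6 Bptf KD and 3 control tumors. Filled symbols passed an adjusted p of 0.05: *Cxcl9* in 66cl4 from BALB/c mice at 2.29 and *Ifng* in 67NR from NSG mice at -0.71.

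Whether the Bptf KD effect differed between hosts was tested directly, as an interaction over the 18 tumors of a line. For *Cxcl9* the effect in NSG minus the effect in BALB/c was -2.58 ± 0.79 SE in 67NR and -2.21 ± 0.46 SE in 66cl4 (adjusted p = 0.476 and 0.263). *Cxcl10* gave -2.33 ± 0.72 SE in 67NR and -0.46 ± 0.40 SE in 66cl4 (adjusted p = 0.476 and 0.606), and *Cxcl11* gave -2.06 ± 1.04 and -1.54 ± 0.63 SE (adjusted p = 0.739 and 0.401). No member passed, and no gene of 12394 passed in either line (0.0%). Before adjustment, 3 of 4 members in 67NR and 2 of 4 in 66cl4 had p under 0.05, against 6.89% and 11.9% of all genes. With array weights, which give less weight to arrays far from the fit, the interaction passed for *Cxcl9* (adjusted p = 0.00744 in 67NR and 0.00466 in 66cl4), and that setting also called 1798 and 771 genes in all.

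The same test between lines called no member in the fit reported here. In BALB/c mice, the Bptf KD effect in 67NR minus that in 66cl4 was 0.08 ± 0.60 SE for *Cxcl9*, 1.03 ± 0.68 SE for *Cxcl10*, -0.38 ± 1.14 SE for *Cxcl11* and 0.87 ± 0.38 SE for *Cxcr3* (adjusted p between 0.503 and 0.971, with 0.0% of genes called). The difference for *Cxcl9* was thus small beside its SE, and *Cxcr3* was the 1 member of 4 with p under 0.05 before adjustment, where 9.64% of all genes had it. With array weights *Cxcr3* (0.98, adjusted p = 0.00774) and *Cxcl10* (1.52, adjusted p = 0.0491) passed in BALB/c mice, and that setting called 2196 genes in all. In NSG mice the differences ran from -0.91 to -0.29 (adjusted p between 0.514 and 0.949), with 0 of 4 members past the threshold and 0.96% of all genes.

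Between hosts, *Cxcl9* and *Cxcl11* were lower in NSG than in BALB/c mice in all 4 pairs of groups, and *Cxcl10* in 3 of them. In Bptf KD tumors of both lines *Cxcl9* had the largest decrease in NSG of all 12394 genes. 67NR Bptf KD tumors had 5.11, 7.16 and 7.47 as lowest, median and highest value in NSG mice, against 12.53, 13.78 and 14.50 in BALB/c mice (-6.97 ± 0.46 SE, 126-fold lower, adjusted p = 5.18e-06). 66cl4 Bptf KD tumors had 6.13, 6.98 and 7.46 in NSG mice, against 12.40, 12.52 and 13.56 in BALB/c mice (-5.90 ± 0.24 SE, 59.9-fold lower, adjusted p = 2.67e-09). The ranges were about 5 log2 units apart.

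In control tumors the same gene was lower in NSG mice too. *Cxcl9* had 7.14, 5.92 and 7.75 in 67NR controls from NSG mice, against 11.43, 11.87 and 10.69 from BALB/c mice (-4.39 ± 0.45 SE, adjusted p = 0.00246). 66cl4 controls had 7.57, 6.63 and 6.28 in NSG mice, against 10.51, 10.97 and 10.08 in BALB/c mice (-3.69 ± 0.36 SE, adjusted p = 0.0102). *Cxcl9* was therefore well above its NSG level in immune-competent hosts also without Bptf KD.

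*Cxcl11* followed the same order. Its difference between NSG and BALB/c hosts was -5.48 ± 0.66 SE in 67NR Bptf KD tumors, -3.42 ± 0.37 SE in 67NR controls, -3.80 ± 0.37 SE in 66cl4 Bptf KD tumors and -2.26 ± 0.36 SE in 66cl4 controls, and all 4 passed (adjusted p between 1.53e-05 and 0.039). In NSG mice its brighter probe set ran from 4.88 to 7.27, against 7.33 to 12.98 in BALB/c mice. *Cxcl10* fell by 2.84 in 67NR Bptf KD tumors, by 1.42 in 66cl4 Bptf KD tumors and by 0.96 in 66cl4 controls (adjusted p = 0.00149, 0.00228 and 0.0441), and 67NR controls differed by -0.51 ± 0.29 SE (adjusted p = 0.288).

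*Cxcr3* was lower in NSG mice in both 67NR groups and passed in neither 66cl4 group. It had 5.62, 5.96 and 6.37 in 67NR Bptf KD tumors from NSG mice, against 6.97, 7.74 and 8.70 from BALB/c mice (-1.77 ± 0.26 SE, adjusted p = 0.000835), and 67NR controls gave a smaller value that passed as well (-0.69 ± 0.14 SE, adjusted p = 0.025). 66cl4 tumors gave -0.38 ± 0.15 SE with Bptf KD and -0.56 ± 0.18 SE in controls (adjusted p = 0.124 and 0.0925). In all, 4 of 4 members fell in 67NR Bptf KD tumors, 3 of 4 in each of the other groups, where 8.09% (67NR Bptf KD), 3.93% (67NR control), 6.38% (66cl4 Bptf KD) and 1.26% (66cl4 control) of all genes fell.

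The host calls in controls were less firm than those in Bptf KD tumors. With 3 tumors a side, the methods' t-test called no member after adjustment. With an RNA integrity covariate the 67NR controls lost every call (limma adjusted p = 0.999), where *Cxcr3* differed by -0.004 and *Cxcl10* turned to 1.11. In these tumors the integrity measure was 0.46 to 0.54 in NSG mice, against 0.77 to 0.86 in BALB/c mice. Covariate and host can hardly be told apart there, so that setting does not decide on the host calls. In 66cl4 controls, *Cxcl10* and *Cxcl11* each lost the call on leaving out any of 5 of the 6 tumors (all but BALB/c control replicate 1), and *Cxcl9* lost it without NSG control replicate 2 (0.053). *Cxcr3* in 67NR controls lost it without NSG control replicate 3 or any BALB/c control (up to 0.102). In 66cl4 Bptf KD tumors, *Cxcr3* gained the call without NSG Bptf KD replicate 5 (-0.53, adjusted p = 0.00145).

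Lymphocyte markers moved with the host too. The mean of 10 NK cell genes ran from 4.79 to 5.44 in tumors from NSG mice, against 6.92 to 10.62 in those from BALB/c mice, and 11 T cell genes ran from 5.32 to 5.57, against 6.04 to 9.84. *Ncr1*, the NK cell receptor NKp46, had 3.97 to 5.08 in NSG mice, against 6.29 to 10.36 in BALB/c mice. In 67NR, myeloid markers moved with the host as well. The mean of 11 macrophage and monocyte genes was 10.74 to 11.26 in 67NR Bptf KD tumors from NSG mice, against 11.24 to 12.34 from BALB/c mice, with 3 of 11 genes called lower, and 10.78 to 11.28 in 67NR controls from NSG mice, against 11.33 to 11.41 from BALB/c mice, with 1 of 11 called lower. The mean of 7 dendritic cell genes was 5.46 to 5.92 in 67NR Bptf KD tumors from NSG mice, against 6.60 to 7.68 from BALB/c mice, with 5 of 7 called lower, and 5.58 to 5.70 in 67NR controls from NSG mice, against 6.03 to 6.13 from BALB/c mice, with 2 of 7 called lower (of all genes, 8.09% and 3.93% fell in these 2 comparisons). In 66cl4 the hosts overlapped in both means: the macrophage mean was 11.78 to 12.22 in NSG mice, against 11.94 to 12.33 in BALB/c mice, and the dendritic cell mean 5.87 to 6.21, against 5.89 to 6.46. Of each list 2 genes were called lower in 66cl4 Bptf KD tumors from NSG mice and 0 in controls (6.38% and 1.26% of all genes), and of the macrophage list 1 and 2 were called higher (4.67% and 1.27% of all genes). The 8 muscle genes were at 5.36 to 7.45 in 66cl4 tumors from NSG mice, against 6.90 to 11.65 in those from BALB/c mice. In 66cl4 the 3′ minus 5′ difference of the *Gapdh* control probe sets was -0.12 to 0.06 in NSG mice. It was 0.14 to 0.33 in BALB/c mice, without overlap. In 67NR it was -0.01 to 0.17 in NSG mice, against 0.16 to 0.52 in BALB/c mice. The part of these in the ligand differences was not tested.

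Ordered by group means, *Cxcl9* ran from 67NR Bptf KD in BALB/c mice (13.7 ± 0.83 SD, n = 6) through 66cl4 Bptf KD in BALB/c mice (12.8 ± 0.51, n = 6), 67NR controls (11.3 ± 0.60, n = 3) and 66cl4 controls (10.5 ± 0.45, n = 3) in BALB/c mice, to the 4 NSG groups, whose means lay between 6.72 and 6.94. Ranges were apart between the 2 Bptf KD groups and the 2 control groups from BALB/c mice and between those and all NSG groups. *Cxcl11* kept the same order among BALB/c groups, with means of 10.9, 10.2, 8.85 and 7.78, but of these only 66cl4 controls were apart from the next group, the NSG tumors. Neighbors in the order of *Cxcl10*, with means of 9.99 down to 7.15, all overlapped. For *Cxcr3*, 67NR Bptf KD tumors from BALB/c mice stood above the next group without overlap (7.72 ± 0.63, n = 6, against 6.81 ± 0.09 in their controls, n = 3), and the other neighbors overlapped.

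Between lines, 67NR over 66cl4, few members passed. *Cxcr3* was higher in 67NR than in 66cl4 Bptf KD tumors from BALB/c mice, at 6.97 to 8.70, against 6.51 to 6.89 (1.03 ± 0.24 SE, adjusted p = 0.0146), 1 of 4 members where 5.87% of genes passed upward. *Cxcl11* was lower in 67NR than in 66cl4 Bptf KD tumors from NSG mice, at 5.18 to 5.65, against 5.57 to 7.27 (-0.99 ± 0.25 SE, adjusted p = 0.00557), 1 of 4 where 22.1% of genes passed downward. Controls of the 2 lines gave no call for a member, where 26.1% of genes passed in BALB/c mice and 36.2% in NSG mice. *Cxcl9* differed by 0.89 ± 0.36 SE between the Bptf KD groups from BALB/c mice (adjusted p = 0.127), and by 1.12 without 67NR replicate 2 (adjusted p = 0.0445). In BALB/c controls, *Cxcl9* passed without 67NR replicate 3 (1.13, adjusted p = 0.0272) or 66cl4 replicate 2 (1.03, adjusted p = 0.046), and *Cxcl11* without 67NR replicate 3 (1.43, adjusted p = 0.0475) or 66cl4 replicate 1 (1.52, adjusted p = 0.00704). In NSG controls *Cxcl10* passed without 67NR replicate 2 (0.89, adjusted p = 0.0144). The call for *Cxcl11* in NSG mice was lost with the spread shared over all tumors (adjusted p = 0.13), and its second, dim probe set gave -0.012 (adjusted p = 0.915).

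The second probe set of *Cxcl11* was dim, with a mean of 3.70 over all tumors that lies at the 5.9th percentile of probe sets, against 7.79 for the brighter one. It had 5.87, 3.87, 4.36, 6.21, 3.66 and 4.32 in 67NR Bptf KD tumors from BALB/c mice, against 3.52, 3.58 and 3.50 in controls. 66cl4 tumors had 3.88, 4.29, 3.44, 4.67, 3.84 and 3.63 with Bptf KD, against 3.74, 3.41 and 3.52 in controls, and all NSG tumors were between 3.16 and 3.54. The direction was the same in BALB/c mice, with the highest values again in 67NR Bptf KD replicates 1 and 4, but differences were smaller (1.18 in 67NR and 0.40 in 66cl4), and neither passed in a fit of all probe sets.

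Upstream of the ligands, *Ifng*, the gene of interferon gamma, had higher means with Bptf KD in BALB/c hosts and passed in neither line. It had 8.28, 6.05, 9.12, 10.32, 8.02 and 7.06 in 67NR Bptf KD tumors, against 5.14, 6.35 and 5.20 in controls (2.58 ± 0.81 SE, adjusted p = 0.609). 66cl4 Bptf KD tumors had 5.52, 5.33, 4.47, 6.52, 5.49 and 4.66, against 3.80, 4.27 and 3.93 in controls (1.33 ± 0.36 SE, adjusted p = 0.0786), without overlap. In NSG mice *Ifng* fell in 67NR Bptf KD tumors, at 3.59 to 4.03, against 4.24 to 4.68 in controls (-0.71 ± 0.13 SE, adjusted p = 0.0325), at values near the array's lower end. That call was lost on leaving out control replicate 1 or 3 or Bptf KD replicate 2, 3 or 4 (adjusted p up to 0.251), with the replicate block (0.0613), with the methods' t-test (0.122) and with the spread shared over all 36 tumors (0.64).

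*Irf1*, a transcription factor that interferon gamma induces and that acts on *Cxcl9* and *Cxcl10*, was higher in all 6 Bptf KD tumors than in every control in 3 of the 4 comparisons. In 67NR tumors from NSG mice, it had 10.61 to 11.19 with Bptf KD, against 10.20, 10.21 and 10.21 in controls, and rose by 0.68 ± 0.12 SE (adjusted p = 0.0278), where no ligand passed. With 1 tumor left out the rise was at least 0.62, and it lost its call without control replicate 1 or 3 or Bptf KD replicate 1, 2 or 3 (adjusted p up to 0.169). The call was also lost with the spread shared over all 36 tumors (0.212), with the methods' t-test (0.111) and with the RNA integrity covariate (0.0583). Differences in BALB/c mice were 1.28 ± 0.38 SE in 67NR and 0.76 ± 0.20 SE in 66cl4 (adjusted p = 0.609 and 0.0768), and 66cl4 in NSG mice gave 0.03 ± 0.09 SE.

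The interferon gamma list of 17 measured genes, which holds the cytokine, its receptor, signalling proteins below it, interferon regulatory factors and IL-12 and IL-18 components, had 0 genes past the threshold with Bptf KD in BALB/c mice in both lines (0.0% of all genes in 67NR and 0.186% in 66cl4). Before adjustment 6 were higher in 67NR, where 4.37% of all genes were, and 6 were higher and 3 lower in 66cl4, where 12.4% and 13.4% of all genes were. Its median difference was 0.43 in 67NR and 0.31 in 66cl4, beside 0.00 and 0.03 over all genes. The smallest p in 66cl4 belonged to *Il18* (0.78 ± 0.17 SE), *Irf8* (0.69 ± 0.18 SE) and *Il12rb1* (0.69 ± 0.18 SE), at adjusted p between 0.0666 and 0.0768. In NSG mice *Irf1* and *Ifng* were the only calls, both in 67NR (0.589% of genes rose and 0.549% fell), and the medians were -0.03 and -0.02.

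Between hosts this list moved mostly downward in NSG. It had 8 of 17 genes lower and 0 higher in 67NR Bptf KD tumors, 3 lower in 67NR controls, 6 lower in 66cl4 Bptf KD tumors and 0 in 66cl4 controls, where 8.09%, 3.93%, 6.38% and 1.26% of all genes fell in that order of groups. Before adjustment 4 of the 17 were lower and 3 higher in 66cl4 controls, where 15.9% and 14.6% of all genes were. *Ifng* fell by 4.34 in 67NR and by 1.60 in 66cl4 Bptf KD tumors (adjusted p = 0.000385 and 0.00124). *Irf8*, a factor of macrophages and dendritic cells, fell by 2.02 and 0.86, and *Il12b*, the p40 chain of IL-12, by 1.43 and 1.12. In 66cl4 controls *Ifng* had 3.82 to 4.12 in NSG mice, against 3.80 to 4.27 in BALB/c mice, close to the 5th percentile of gene means (3.84), so that a difference between hosts could not be read there.

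Among proteins that bind or cut the ligands, *Dpp4*, a peptidase that trims their first residues and lowers their activity, was higher with Bptf KD in BALB/c mice by 1.41 ± 0.52 SE in 67NR and 0.94 ± 0.25 SE in 66cl4 (adjusted p = 0.609 and 0.0774). *Ackr3*, the atypical receptor for CXCL11 and CXCL12, rose in 67NR Bptf KD tumors from NSG mice (0.85 ± 0.10 SE, adjusted p = 0.00511), where 0.589% of all genes rose. That was the only call among the list's 10 genes in the 4 Bptf KD comparisons. *Ackr3* was higher in NSG than in BALB/c hosts in 67NR Bptf KD tumors (1.08 ± 0.22 SE, adjusted p = 0.00598). It was 1 of the 10 called higher there, with 0 called lower (share of all genes called higher not reported here). The calls of *Ackr3* were not followed over the alternative settings. *Pf4*, a platelet CXC chemokine, was higher in NSG hosts in 66cl4 Bptf KD tumors (0.71 ± 0.20 SE, adjusted p = 0.0337), where 4.67% of all genes were. With Bptf KD and before adjustment, 1 of the 10 was higher in 67NR and 2 in 66cl4 from BALB/c mice (4.37% and 12.4% of all genes). From NSG mice 1 was higher and 1 lower in 67NR (14.1% in either direction) and 1 lower in 66cl4 (2.32%).

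On the receptor side, *Tbx21* is the gene of T-bet, which drives *Cxcr3* in T cells and NK cells. It had 5.25 to 7.55 in 67NR Bptf KD tumors from BALB/c mice, against 4.63 to 4.81 in controls (1.69 ± 0.53 SE, adjusted p = 0.609). In 66cl4 it had 4.09 to 4.86, against 3.92 to 4.46 (0.29 ± 0.19 SE, adjusted p = 0.375). *Tbx21* and *Cxcr3* thus had the same layout, with the groups apart in 67NR and overlapping in 66cl4. Of the 12 genes of CXCR3 signalling, which add G proteins, arrestins, *Pik3cg*, *Rac2*, *Dock2* and the LFA-1 integrin chains *Itgal* and *Itgb2*, 0 passed with Bptf KD in any of the 4 comparisons. At p under 0.05 before adjustment, 2 were higher and 1 lower in 67NR from BALB/c mice (4.37% and 3.38% of all genes), and 1 was lower in 66cl4 from BALB/c mice (13.4%). From NSG mice 1 was lower in 67NR (6.59%) and 1 higher in 66cl4 (5.36%). In NSG hosts 6 of 12 were lower in 67NR Bptf KD tumors, 3 in 67NR controls, 2 in 66cl4 Bptf KD tumors and 0 in 66cl4 controls, beside 8.09%, 3.93%, 6.38% and 1.26% of all genes. Before adjustment 4 of 12 were lower in 66cl4 controls (15.9% of all genes).

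Other CXC chemokines and receptors, 14 genes, also had 0 calls with Bptf KD. Before adjustment 4 were higher and 1 lower in 67NR from BALB/c mice (4.37% and 3.38% of all genes), 5 were higher in 66cl4 from BALB/c mice (12.4%), and 1 in 67NR and 2 in 66cl4 were lower from NSG mice (6.59% and 2.32%). *Cxcl13*, which attracts B cells through CXCR5, differed by 3.66 ± 0.95 SE in 67NR and 1.74 ± 0.44 SE in 66cl4 tumors from BALB/c mice (adjusted p = 0.609 and 0.0744). *Cxcr6*, a receptor of resident T and NK cells, differed by 2.88 ± 1.22 and 2.19 ± 0.49 SE, and its ligand *Cxcl16* by 0.97 ± 0.17 SE in 66cl4 (adjusted p = 0.0566). *Cxcl1*, a neutrophil chemokine, was -0.94 ± 0.40 SE in 67NR from BALB/c mice and -1.19 ± 0.43 SE in 67NR from NSG mice (adjusted p = 0.637 and 0.229). Of the 14, 5 were called lower in NSG hosts in 67NR Bptf KD tumors and 2 in 67NR controls (8.09% and 3.93% of all genes). In 66cl4, 2 were lower with Bptf KD and 1 in controls (6.38% and 1.26%). Called higher were 3 and 2 in 66cl4 (4.67% and 1.27%), and 0 and 3 in 67NR (share of all genes not reported here). Between hosts *Cxcr6* fell in NSG by 5.44 in 67NR and by 3.21 in 66cl4 Bptf KD tumors. The neutrophil chemokines *Ppbp* and *Cxcl5* rose by 1.33 and 0.81 in 66cl4 Bptf KD tumors (adjusted p of these genes between 0.000473 and 0.0298).

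**Figure D3:**
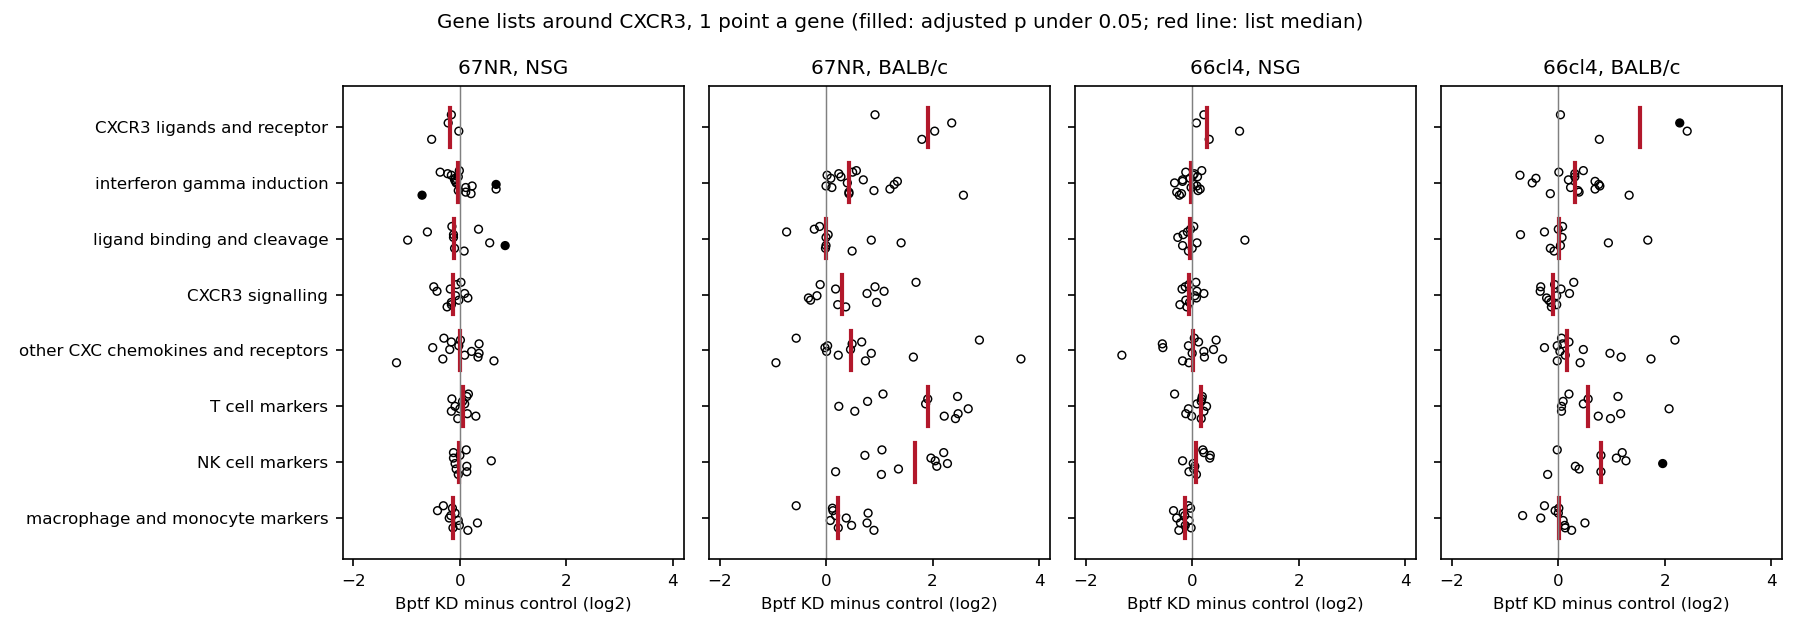
Difference between Bptf KD and control tumors (log2) for each gene of the CXCR3 axis, of the lists around it and of T cell, NK cell and macrophage markers, in 67NR and 66cl4 tumors from NSG and BALB/c mice; each circle is 1 gene, filled where its adjusted p was under 0.05, and red lines are list medians. The medians of the 4 members are -0.19 in 67NR and 0.27 in 66cl4 from NSG mice, and 1.92 in 67NR and 1.53 in 66cl4 from BALB/c mice.

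Lymphocyte and dendritic cell markers had positive median differences with Bptf KD in BALB/c mice, where the ligands had them too. In 67NR so did other lists: skeletal muscle (1.68), epithelial (1.06), fibroblast (0.76), adipocyte (0.59), endothelial (0.32) and neutrophil genes (0.18). In 66cl4 these medians were 0.04, 0.03, -0.43, 0.37, -0.21 and 0.13 in that order. B cell genes had 0.32 in 67NR and 0.16 in 66cl4, where 1 of 6 was called higher, against 0.113% of all genes. The 11 T cell genes had a median difference of 1.91 in 67NR and 0.56 in 66cl4, with 0 calls in both and 8 and 7 genes higher at p under 0.05 before adjustment, where 0.0% and 0.113% of all genes were called higher and 4.37% and 12.4% were higher before adjustment. The 10 NK cell genes had medians of 1.67 and 0.80, with 0 calls in 67NR and 1 in 66cl4, *Klrc1*, an inhibitory receptor (1.96 ± 0.26 SE). *Cd3g*, a chain of the T cell receptor complex, had 7.74, 10.54 and 12.80 in 67NR Bptf KD tumors, against 7.03, 7.24 and 9.49 in controls, and 7.82, 9.22 and 10.15 in 66cl4 Bptf KD tumors, against 6.61, 7.36 and 7.43 in controls. *Cd3e*, also on the T cell list, overlapped in both lines. It had 6.69, 6.94 and 7.73 (lowest, median and highest) in 67NR Bptf KD tumors, against 6.43, 6.58 and 6.73 in controls. In 66cl4 it had 6.26, 6.48 and 6.66, against 6.37, 6.38 and 6.57. The 7 dendritic cell genes had medians of 0.96 in 67NR and 0.25 in 66cl4, with 0 calls in both and 6 and 3 genes higher before adjustment. Macrophage medians were 0.23 and 0.01, with 0 calls, 3 genes higher and 1 lower before adjustment in 67NR and 1 lower in 66cl4 (13.4% of all genes). Whether these account for the ligand values was not tested.

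Within groups, tumors with more *Ifng* had more *Cxcl9* in BALB/c hosts. Each tumor's deviation from its group mean was used, so that differences between group means do not enter. Groups with more spread weigh more: the SD of *Ifng* was 1.50 in 67NR Bptf KD tumors from BALB/c mice, against 0.24 to 0.73 in the other BALB/c groups. A mix of hairpins within a group would also stay in the deviations. In all, 42 relations were tested by permutation within groups with Benjamini-Hochberg adjustment. Over the 18 tumors from BALB/c mice, *Cxcl9* and *Ifng* gave r = 0.84 (p = 0.00017, adjusted 0.0036) and rho = 0.81 (p = 0.00073, adjusted 0.0061), and r was 0.76 without the 2 tumors farthest out in *Cxcl9*. *Cxcl9* and *Cxcl11* gave r = 0.84 (p = 0.0010, adjusted 0.0086) and rho = 0.89 (p = 0.00044, adjusted 0.0046), with r = 0.76 without 2 tumors. *Cxcl9* and *Cxcl10* gave r = 0.73 (permutation p = 0.0051, adjusted 0.035) and rho = 0.68 (p = 0.0080, adjusted 0.041), with r = 0.65 without 2 tumors. These 3 relations passed on both measures.

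The other relations were weaker. *Cxcl10* and *Cxcl11* with *Ifng* gave r = 0.76 and 0.70 in BALB/c mice (permutation p = 0.011 and 0.021, adjusted 0.055 and 0.080; rho = 0.56 and 0.69, adjusted p = 0.12 and 0.046). *Cxcr3* gave r = 0.28, 0.66 and 0.00 with *Cxcl9*, *Cxcl10* and *Cxcl11* (permutation p = 0.44, 0.064 and 1.0; rho = 0.14, 0.39 and -0.13), and the value with *Cxcl10* was 0.34 without 2 tumors. No pair passed among the 18 tumors from NSG mice, where *Cxcl9* and *Ifng* gave r = 0.25 (permutation p = 0.42, adjusted 0.66) and rho = 0.23, with *Ifng* near the array's lower end. Relations to *Bptf* within groups were read from its brightest probe set only. On that probe set no ligand passed (r between -0.29 and 0.22 in BALB/c mice). *Cxcr3* and *Bptf* gave rho = 0.71 (permutation p = 0.0045, adjusted 0.027) but r = 0.60 (p = 0.11, adjusted 0.27) in BALB/c mice. Relations to the dimmer probe sets of *Bptf*, which did not all move with the brightest one, were not tested.

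**Figure D4:**
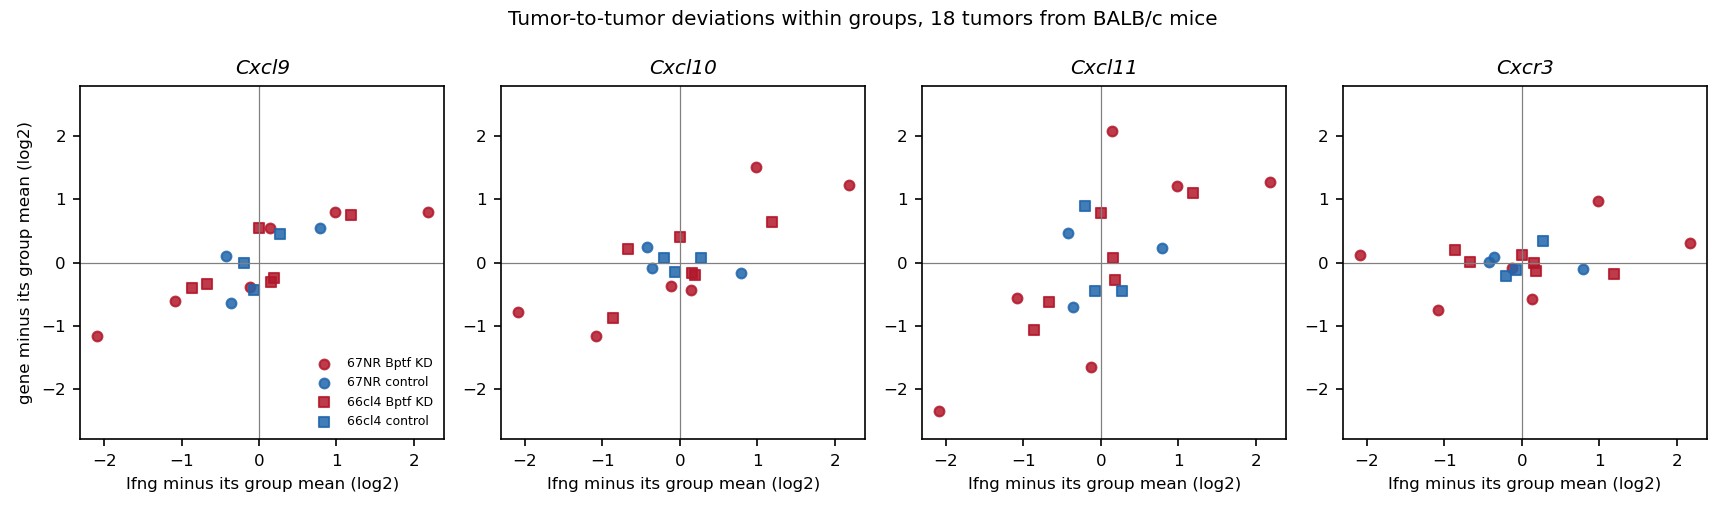
Deviation of *Cxcl9*, *Cxcl10*, *Cxcl11* and *Cxcr3* from the group mean (log2, vertical axis) against that of *Ifng* (log2, horizontal axis) in the 18 tumors from BALB/c mice; circles are 67NR and squares 66cl4, red is Bptf KD and blue is control. Over both lines together r with *Ifng* is 0.84 for *Cxcl9* and 0.29 for *Cxcr3*.

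The genes most like each member were found by the same deviations over all 36 tumors, as a description. *Cxcl9* was followed most closely by *Cfb*, a complement factor (r = 0.88), *Iigp1*, an interferon-inducible GTPase (0.87), *Fgl2* (0.87), *Serpinb6b* (0.86) and *Psmb8*, an immunoproteasome subunit (0.85). *Cxcl10* was followed by *Dram1* (0.84), *Mx1*, an antiviral GTPase (0.80), *Il15ra* (0.80), *Myo1g* (0.80) and *Gbp7*, a guanylate-binding protein (0.79). *Cxcl11* was followed by *Zbp1*, a nucleic acid sensor (0.88), *Ifi44l* (0.85), *Tnfsf10*, which encodes TRAIL (0.85), *Sh2d1a* (0.84) and *Cd200r1* (0.84). The 3 ligands had no gene in common among their closest 5, and from *Cxcl9* the ranks of *Cxcl10* and *Cxcl11* were 208 and 289.

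The closest genes to *Cxcr3* were of another kind: *Ezh1*, a histone methyltransferase (0.87), *Daglb* (0.86), *Srgap2* (0.86), *Ctsa*, a lysosomal carboxypeptidase (0.85), and *Scamp2* (0.84), none of them a marker on the T cell or NK cell lists. *Cxcl10*, *Cxcl9* and *Cxcl11* ranked 2692, 5529 and 5985 for likeness to *Cxcr3*. The *Cxcr3* probe set had a mean of 6.59 over all tumors, at the 42.9th percentile, so that its small differences were read from a probe set of middling brightness. Its values in 66cl4 tumors from BALB/c mice (6.43 to 6.99) were close to those in NSG mice (5.62 to 7.05).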

How the data were processed

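Tumor RNA was labelled from 500 ng and hybridised to Affymetrix mouse arrays. For 22690 probe sets and 36 tumors the authors deposited log2 values made with RMA (version not given in the sources used here), which corrects the background, normalizes between arrays and summarizes the probes of a set. The name RMA is taken from the submitters' processing notes. Array medians ran from 7.03 to 7.21 and no value was missing. The number of arrays limits the precision. Necrotic tissue had been cut away before extraction.

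The 20393 probe sets with 1 symbol, updated through RefSeq gene IDs, gave 12394 genes, each read from its brightest probe set. Levels of different probe sets are not comparable. Some listed genes were not analysed here. Each comparison was its own limma fit (version 3.58.1, R 4.3.3), and p-values of all genes were adjusted together (Benjamini-Hochberg, threshold 0.05). P-values measure the spread between tumors, not between hairpins. Single values were tested by exact permutation, relations by 100000 permutations. Python 3.11.15 with pandas 2.3.3, numpy 2.4.6, scipy 1.17.1 and matplotlib 3.10.9 was used, and scripts were tested on simulated data. RNA integrity is the mean 3′ minus 5′ difference of actin and *Gapdh* control probe sets.

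The members, lists and alternatives were chosen with earlier results of these data known. Named were the members, *Ifng*, *Irf1*, *Tbx21* and *Bptf*, list genes past the threshold or among the 4 with the smallest p, and the 5 genes most like each member. Marker examples were chosen after their values were seen. The alternatives tried were leaving out each tumor, 1 joint fit over the 36 tumors, a filter on the dimmest 25% of genes, the t-test of the study's methods (called the methods' t-test), quantile normalization, subtraction of array medians, a replicate block, all probe sets, the mean of a gene's probe sets, array weights and an RNA integrity covariate. To the methods' t-test the adjustment over all genes was added here.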

Additional observations from a re-analysis of the deposited data

Results flagged for a closer look

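In 36 groups of 6 Bptf KD tumors (the 5 member probe sets, *Ifng*, *Irf1*, *Tbx21* and *Bptf*), 3 held a tumor far from the others by Dixon's test, which flags about 1 in 20 groups by chance. *Cxcr3* in 66cl4 Bptf KD tumors from NSG mice had its highest value, 7.05, in replicate 5, where the next was 6.32. *Bptf* in 67NR Bptf KD tumors from BALB/c mice had its lowest value, 8.34, in replicate 6, where the next was 9.82. *Tbx21* in 67NR Bptf KD tumors from NSG mice had its highest value, 3.89, in replicate 2, where the next was 3.70. The Bptf KD effect on *Irf1* in NSG mice differed between lines, 67NR minus 66cl4, by 0.65 (limma interaction, adjusted p = 0.0419). That call was lost with the spread shared over all 36 tumors (adjusted p = 0.813), with quantile normalization (0.0507), with array medians subtracted (0.0604), with the RNA integrity covariate (0.0592) and on leaving out any of 14 single tumors (up to 0.144), at values between 0.61 and 0.67.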

How the results depend on the processing

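The replicate numbers did not pair the tumors (correlations of deviations between same-numbered Bptf KD and control tumors from -0.45 to 0.27). With the number as a block, *Cxcr3* in 66cl4 controls passed between hosts (-0.56, adjusted p = 0.0466), and with no call before or after, the Bptf KD effect turned to 0.38 for *Cxcl9* in 67NR from NSG mice, -0.02 for *Cxcr3* and -0.027 for *Tbx21* in 66cl4 from NSG mice and 0.27 for *Bptf* in 67NR from BALB/c mice. Among other calls it moved those between lines in BALB/c controls (*Cxcl9* 0.81, adjusted p = 0.00672, and *Cxcl11* 1.07, adjusted p = 0.0144) and *Ifng* in 67NR from NSG mice (-0.61, adjusted p = 0.0613), and no further call of a member.

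Over 40 member results (Bptf KD effects, their host differences and NSG against BALB/c), 757 of 834 alternatives kept direction and side of the threshold. Fitting all 36 tumors brought *Cxcl9* (2.37), *Cxcl10* (1.80) and *Cxcr3* (0.92) past it for Bptf KD in 67NR from BALB/c mice, and lost *Cxcl9* in 66cl4 (2.29) and, between hosts, *Cxcl10* (-0.96) and *Cxcl11* (-2.26) in 66cl4 controls and *Cxcr3* (-0.69) in 67NR controls. The methods' t-test lost *Cxcl9* for Bptf KD in 66cl4 from BALB/c mice (2.29), *Cxcl9* (-4.39), *Cxcl11* (-3.42) and *Cxcr3* (-0.69) in 67NR controls and *Cxcl9* (-3.69), *Cxcl10* (-0.96) and *Cxcl11* (-2.26) in 66cl4 controls. Array weights brought past it, for Bptf KD in BALB/c mice, *Cxcl9* (2.47), *Cxcl10* (2.32) and *Cxcr3* (1.10) in 67NR and *Cxcl10* (0.85) and *Cxcl11* (2.72) in 66cl4, and *Cxcl11* (0.86) in 66cl4 from NSG mice; the host differences of *Cxcl9* (-2.70), *Cxcl10* (-2.94), *Cxcl11* (-2.41) and *Cxcr3* (-1.34) in 67NR and *Cxcl9* (-2.27) and *Cxcl11* (-1.83) in 66cl4; and *Cxcr3* between hosts in 66cl4 Bptf KD (-0.49) and control tumors (-0.44). The RNA integrity covariate lost *Cxcl9* for Bptf KD in 66cl4 (2.37) and *Cxcl9* (-3.09), *Cxcl11* (-2.07) and *Cxcr3* (-0.004) in 67NR controls between hosts, and gained *Cxcr3* in 66cl4 Bptf KD tumors (-0.72). In 67NR controls the covariate's values did not overlap between hosts. The second probe set of *Cxcl11* lost its host calls in 67NR (-0.32) and 66cl4 controls (-0.27). The cause was not tested.

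Directions turned only where neither value passed. With the integrity covariate these were *Cxcl10* between hosts in 67NR controls (1.11), *Cxcl11* in the line difference in BALB/c mice (0.23) and between lines in NSG controls (0.14), and *Cxcr3* in the host difference in 66cl4 (-0.076). With array weights they were *Cxcl9* in the line difference in BALB/c mice (-0.016) and between lines in NSG Bptf KD tumors (0.10), *Cxcr3* in the host difference in 66cl4 (-0.052) and *Bptf* in 67NR from BALB/c mice (0.10). The second probe set of *Cxcl11* gave 0.15 for Bptf KD in 67NR from NSG mice, 0.78 and 0.065 for the line difference in BALB/c and NSG mice and -0.023 between lines in BALB/c controls. The mean of its probe sets gave 0.065 and 0.20 for the first 2 of these. Subtracting array medians gave 0.02 for *Cxcl11* in 67NR from NSG mice and -0.033 for *Cxcr3* between lines in NSG controls, where quantile normalization gave -0.007.

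Leaving out 1 tumor gave these ranges where a call or direction changed. For Bptf KD they were 2.07 to 2.51 (*Cxcl9*), 2.20 to 2.87 (*Cxcl11*) and -0.067 to 0.21 (*Cxcr3*) in 66cl4 from BALB/c mice, -0.20 to 0.45 (*Cxcl9*) and -0.015 to 0.14 (*Tbx21*) in 66cl4 from NSG mice, -0.72 to 0.19 (*Cxcl9*), -0.29 to 0.34 (*Cxcl11*) and -0.02 to 0.042 (*Tbx21*) in 67NR from NSG mice and -0.22 to 0.25 (*Bptf*) in 67NR from BALB/c mice. Between hosts they were -4.07 to -3.42 (*Cxcl9*), -1.14 to -0.84 (*Cxcl10*) and -2.49 to -1.81 (*Cxcl11*) in 66cl4 controls, -0.82 to -0.58 (*Cxcr3*) in 67NR controls and -0.53 to -0.32 (*Cxcr3*) in 66cl4 Bptf KD tumors. The line differences of *Cxcl9* ran from -0.24 to 0.35 in BALB/c mice and -0.80 to 0.12 in NSG mice, and that of *Cxcl11* from -0.83 to 0.089 in BALB/c mice. Between lines they were -0.33 to 0.14 for *Cxcl9* in NSG Bptf KD tumors, -0.30 to 0.62 (*Cxcl9*), -0.44 to 0.19 (*Cxcl11*) and -0.10 to 0.14 (*Cxcr3*) in NSG controls and -0.052 to 0.15 (*Cxcl10*) in BALB/c controls.

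Counts of genes past the threshold with Bptf KD moved with the setting: 0 to 3125 in 66cl4 from BALB/c mice (23 in the reported fit), 0 to 1122 in 67NR from BALB/c mice (0), 5 to 1927 in 67NR from NSG mice (141) and 0 to 1389 in 66cl4 from NSG mice (0), with array weights giving the highest each time.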
